A study of Mus musculus with 8 samples.

Results

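The transcripts of 9 coagulation and fibrinolysis genes were measured in murine megakaryocytes (MKs), the marrow cells that release platelets, after culture alone or together with mesenchymal stem cells (MSCs). The genes were taken by symbol from the deposited table of 13387 genes, and all 9 were found: the clotting factors F3, F5, F10 and F13a1, the anticoagulants Thbd and Tfpi, and Plau, Plat and Plaur of the plasminogen system. Of these, 8 passed edgeR's filter on low counts, and Plat did not. The data hold 8 bulk RNA-Seq libraries, 4 of MKs kept alone and 4 of MKs grown with MSCs, each after 18 hours. Every culture used bone marrow cells of wild-type C57BL/6 mice without further treatment, so genotype and strain were shared by both groups. According to the methods, MKs were enriched with magnetic beads against CD41, giving what they call MK-enriched cells, and MSCs were sorted as CD45-, Ter119-, CD31-, CD51+ and PDGFRα+ cells. Several wells were pooled for each library. The labels give the sequenced cells as megakaryocytes, whereas the methods describe platelets generated in the cultures. The study counts its pooled RNA-Seq samples as mice, whereas the labels tie no library to an animal. If libraries shared animals, p-values would measure only the spread between libraries.

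Clotting starts when tissue factor on cells that normally lie outside the blood binds factor VII and activates factor X. Factor Xa, with its cofactor factor Va, turns prothrombin into thrombin, which makes fibrin that factor XIII then cross-links, while tissue factor pathway inhibitor and thrombomodulin hold the cascade in check. Plasmin dissolves fibrin and is made from plasminogen by urokinase and tissue plasminogen activator. MKs load platelets with factor V and with factor XIII A subunits, and monocytes and macrophages are another known source of the A subunit.

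Libraries held between 4939874 and 12523616 counts, and levels are given as CPM, counts brought to 1 library size after TMM adjustment, where 3 counts amount to 0.284 to 0.662 CPM. Replicate 3 of the cocultures stood apart. It had the highest total but only 10735 genes with a count, against 12406 to 13193 in the other libraries, and 1012 of its genes were at 0 while holding at least 10 counts in every other library. Its rank correlation across genes with the other cocultures was between 0.722 and 0.750, compared with 0.967 to 0.987 for other pairs within a group. Results for the members are therefore given with all 8 libraries and again without coculture replicate 3. The labelled cell type was checked on 15 MK and platelet markers, all of which were measured. Their summed level was between 1911 and 2251 CPM in MKs cultured alone and between 1760 and 2361 CPM in the cocultures, and none was called different with 8 libraries (1 higher and 2 lower without coculture replicate 3). Neutrophil markers summed to between 78498 and 81165 CPM in MKs cultured alone and to between 4209 and 9627 CPM in the cocultures, with 8 of 8 lower. In bulk libraries, fewer cells of a type and less RNA per cell cannot be told apart.

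Among the 9 genes, thrombomodulin transcripts rose and factor XIII A transcripts fell in the cocultures, and no other member passed the test with all 8 libraries. A gene was called when it differed at least 2-fold, had an adjusted p no higher than 0.05 over all genes (edgeR quasi-likelihood test, Benjamini-Hochberg adjustment) and reached a mean of 1 CPM in a group. Of 8 members tested, 1 was called higher and 1 lower, beside 13.2% higher and 7.31% lower among all 11722 genes tested. All 9 members were tested when coculture replicate 3 was left out. Thbd, F3, Plau and Plat were then called higher and F13a1 and F5 lower, beside 20.6% higher and 15.4% lower among 12267 genes. The values of the groups did not overlap for 5 of 9 members (Thbd and Plau higher, F5, F13a1 and Plaur lower), beside 37.2% of all 13387 genes. F3 and Plat joined these without coculture replicate 3, making 7 of 9 beside 54.4% of all genes, whereas F10 and Tfpi still overlapped.

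**Figure D1:**
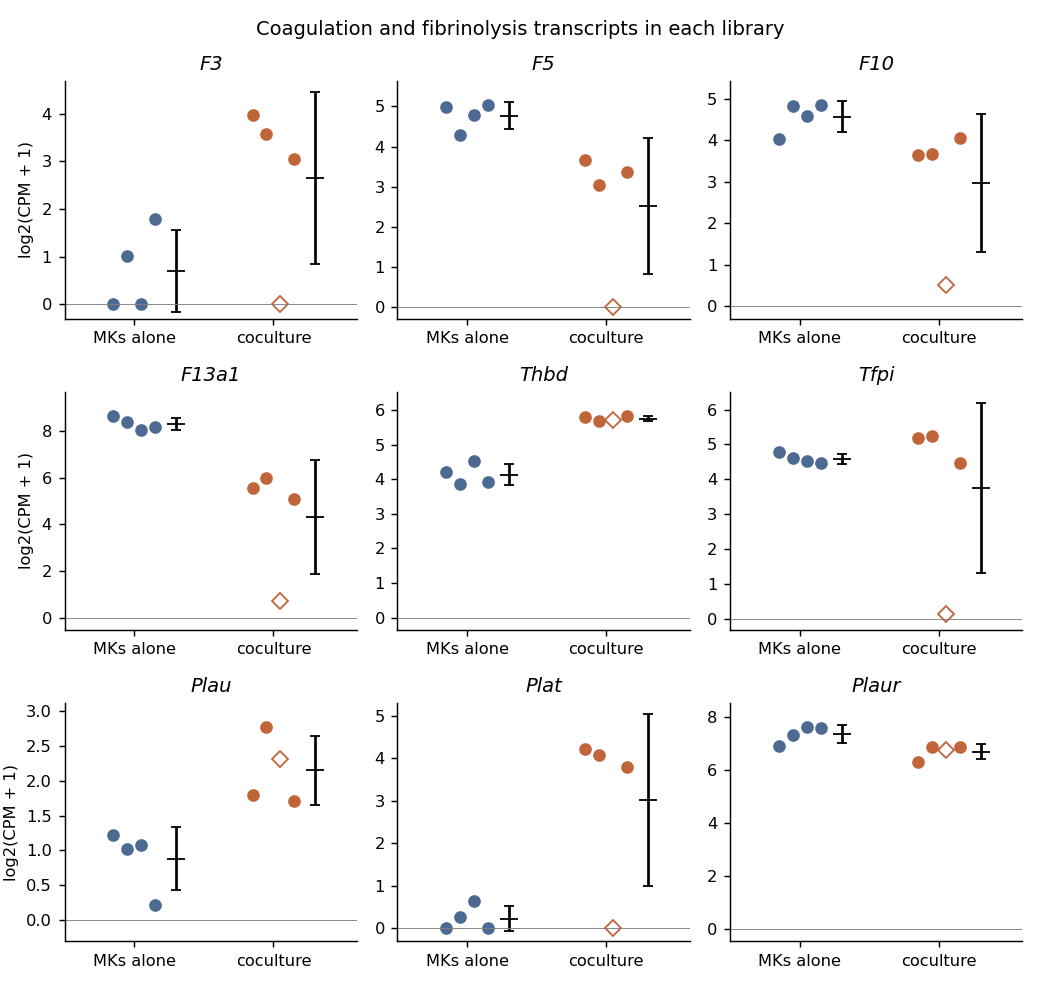
Level of each member in each library as log2(CPM + 1), with MKs cultured alone in blue and cocultures in orange. Open diamonds are coculture replicate 3, and the bars beside the points give mean ± SD (n = 4). Coculture replicate 3 lies at or near 0 for F3, F5, F10, F13a1, Tfpi and Plat, and among the other cocultures for Thbd, Plau and Plaur.

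In coculture replicate 3, the members fell into a pair of groups. Thbd, Plau and Plaur were at the level of the other cocultures. F3, F5 and Plat had 0 counts, which allows up to 0.314 CPM each, counting error only. Tfpi had 1 count, F10 had 4 and F13a1 had 6, from the deepest library of the set. Summed over the 9 members, this library held 162 CPM. The other cocultures held between 271 and 315 CPM, and MKs cultured alone held between 549 and 603 CPM, a sum in which F13a1 and Plaur are the major terms.

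F13a1 encodes the A subunit of factor XIII, the transglutaminase that cross-links fibrin, and was the most abundant clotting factor transcript of MKs cultured alone. It was at 395, 334, 262 and 288 CPM in MKs cultured alone and at 46.4, 61.7, 0.628 and 33.0 CPM in the cocultures. Every coculture was below every library of MKs cultured alone. The means were 320 ± 58.2 CPM (SD, n = 4) and 35.4 ± 26.0 CPM (SD, n = 4), a 9.03-fold lower level with a log2 fold change of −3.18 (SE 0.92, adjusted p = 0.0365). The level was 6.88-fold lower when coculture replicate 3 was left out, with a log2 fold change of −2.78 (SE 0.23, adjusted p = 4.1e-08). The call with all libraries was narrow, since adjusted p ranged from 0.0573 to 0.0917 when any 1 of the other 7 libraries was left out. The gene lies at chr13:36867178-37050244 on the minus strand (GRCm38, the build of mm10), and its longest coding transcript has 15 exons. An antisense gene, Gm30489, shares 74 exonic bases with it, and whether strand was used in counting is not given in the sources used here.

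F5 encodes factor V, the cofactor that speeds prothrombin activation and a known cargo of platelet alpha granules. Its levels were 30.5, 18.7, 26.5 and 31.7 CPM in MKs cultured alone and 11.8, 7.16, 0 and 9.37 CPM in the cocultures. The groups did not overlap. The log2 fold change was −1.92 (SE 1.03, adjusted p = 0.218) and did not pass the test with 8 libraries. When coculture replicate 3 was left out, F5 was called 2.86-fold lower, from 26.8 ± 5.89 CPM (SD, n = 4) to 9.43 ± 2.30 CPM (SD, n = 3), with an adjusted p of 0.000139. F5 lies at chr1:164151838-164220277 on the plus strand and has 25 exons, and the lincRNA gene Gm16548 shares 262 exonic bases with it on the other strand.

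F10 encodes factor X, the protease at which the initiating and amplifying branches of clotting meet. It was at 15.2, 27.1, 23.1 and 27.7 CPM in MKs cultured alone and at 11.5, 11.7, 0.419 and 15.6 CPM in the cocultures. The highest coculture lay just above the lowest library of MKs cultured alone. Neither fit called it. The log2 fold change was −1.25 (SE 0.81, adjusted p = 0.305) with 8 libraries, and −0.88 (SE 0.26, adjusted p = 0.00789) without coculture replicate 3, a 1.84-fold difference that fell short of the 2-fold requirement. The gene lies at chr8:13037308-13056676 on the plus strand.

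F3 encodes tissue factor, the membrane receptor that initiates clotting, and moved the other way. It was at 0, 1.03, 0 and 2.44 CPM in MKs cultured alone and at 14.6, 10.9, 0 and 7.29 CPM in the cocultures. The counts behind these values were 0, 10, 0 and 15 in MKs cultured alone and 154, 84, 0 and 42 in the cocultures. In 3 cocultures F3 was above every library of MKs cultured alone, and in coculture replicate 3 it was not detected. The log2 fold change was 3.21 (SE 1.62, adjusted p = 0.191) and was not called with 8 libraries. The other 3 cocultures averaged 10.9 ± 3.66 CPM (SD, n = 3) against 0.868 ± 1.16 CPM (SD, n = 4) in MKs cultured alone, and the fit on these 7 libraries called F3 higher, with a log2 fold change of 3.63 (SE 0.68, adjusted p = 0.000294). F3 lies at chr3:121723537-121735048 on the plus strand.

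The 250 bases before a start site of each of F3, F5 and F13a1 are shown with their motif matches. A link between these matches and the transcript levels was not tested. Motifs were searched on both strands. The AP-1 motif was TGAGTCA. The Sp1 motif was GGGCGG. The GATA motif was either AGATAA or, as a further form of the same motif, TGATAA. Capitals mark the matches in these RefSeq sequences (GRCm38.p6), printed in the direction of transcription. The windows shown are chr3:121723287-121723536 on the plus strand for F3, chr1:164151585-164151834 on the plus strand for F5 and chr13:37050245-37050494 on the minus strand for F13a1.
F3: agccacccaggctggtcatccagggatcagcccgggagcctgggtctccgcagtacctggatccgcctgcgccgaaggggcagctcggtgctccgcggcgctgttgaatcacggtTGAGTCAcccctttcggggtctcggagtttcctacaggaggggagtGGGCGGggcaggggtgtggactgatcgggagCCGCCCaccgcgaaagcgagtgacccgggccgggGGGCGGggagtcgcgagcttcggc
F5: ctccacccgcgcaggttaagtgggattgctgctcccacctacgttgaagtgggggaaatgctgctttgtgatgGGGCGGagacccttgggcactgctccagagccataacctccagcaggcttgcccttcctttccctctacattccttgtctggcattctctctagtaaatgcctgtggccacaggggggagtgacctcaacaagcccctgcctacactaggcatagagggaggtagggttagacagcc
F13a1: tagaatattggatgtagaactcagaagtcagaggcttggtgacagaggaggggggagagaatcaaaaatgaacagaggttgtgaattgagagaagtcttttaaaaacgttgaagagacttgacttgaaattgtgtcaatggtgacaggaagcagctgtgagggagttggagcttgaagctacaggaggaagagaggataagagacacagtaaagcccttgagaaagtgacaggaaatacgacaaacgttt
The F3 window holds AP-1 letters that begin 135 bases before the start and 3 Sp1 matches that begin 89, 58 and 24 bases before it, the middle one on the other strand. The F5 window holds 1 Sp1 match, and neither of the 2 listed F13a1 start sites has a match to any of these letters. The F10 window has no match either. Each listed Tfpi start site has GATA and Sp1 letters within 250 bases before to 50 after it. Within 250 bases before to 50 after the start, AP-1 letters occur in 5.2% of all 32851 RefSeq promoter windows, GATA letters in 18.6% and Sp1 letters in 35.7%. A match describes the letters only and does not show that a factor binds there. RefSeq windows were found for 6 of 9 members, and those of Thbd, Plau and Plat are not shown here.

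Among the anticoagulants, Thbd rose in every coculture while Tfpi did not pass the test. Thbd encodes thrombomodulin, the membrane receptor that redirects thrombin to activate protein C. It was at 17.4, 13.6, 22.2 and 14.0 CPM in MKs cultured alone and at 54.9, 50.1, 51.4 and 55.3 CPM in the cocultures. All 4 cocultures, replicate 3 included, lay in a narrow band above the highest library of MKs cultured alone. The mean rose 3.15-fold, from 16.8 ± 3.98 CPM to 52.9 ± 2.57 CPM (SD, n = 4 each), with a log2 fold change of 1.65 (SE 0.28, adjusted p = 0.00313). Without coculture replicate 3 the log2 fold change was again 1.65 (SE 0.21, adjusted p = 5.71e-06). The gene is a single exon at chr2:148404466-148408188 on the minus strand.

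Tfpi encodes tissue factor pathway inhibitor, which blocks the complex of tissue factor and factor VIIa together with factor Xa. Its levels were 26.5, 23.2, 21.8 and 21.0 CPM in MKs cultured alone and 35.5, 36.6, 0.105 and 21.2 CPM in the cocultures. A pair of cocultures was above every library of MKs cultured alone, a further one lay within their range and replicate 3 lay far below it. The log2 fold change was 0.01 (SE 1.0, adjusted p = 0.993), an error so large that neither a rise nor a fall of 2-fold could be told from no difference. In the fit of 7 libraries without that replicate it was 0.42 (SE 0.22, adjusted p = 0.127), and it was not called. Tfpi lies at chr2:84432855-84476775 on the minus strand.

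The plasminogen activators were scarce in MKs cultured alone, whereas the urokinase receptor was, after F13a1, the member with the highest CPM there. Plat encodes tissue plasminogen activator, the main activator at fibrin. It was at 0, 0.206, 0.554 and 0 CPM in MKs cultured alone, from 0, 2, 5 and 0 counts, and at 17.6, 15.9, 0 and 12.8 CPM in the cocultures, from 186, 122, 0 and 74 counts. Cocultures 1, 2 and 4 were far above all libraries of MKs cultured alone, and replicate 3 had no count. With 8 libraries Plat failed edgeR's filter on low counts. A fit without that filter gave a log2 fold change of 5.64 (SE 1.65, adjusted p = 0.0389), and that call was lost when any 1 library other than coculture replicate 3 was left out (adjusted p from 0.0710 to 0.108). Plat passed the filter when that replicate was left out and was called higher, with a log2 fold change of 5.94 (SE 0.52, adjusted p = 7.6e-08). Plat lies at chr8:22757727-22782844 on the plus strand.

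Plau encodes urokinase, the activator that works at cell surfaces. It was at 1.32, 1.03, 1.11 and 0.163 CPM in MKs cultured alone and at 2.46, 5.86, 3.98 and 2.26 CPM in the cocultures. Every coculture, replicate 3 included, was above every library of MKs cultured alone, although no library of MKs cultured alone held more than 10 counts. The log2 fold change was 1.99 (SE 0.72, adjusted p = 0.0780) and was not called by edgeR, whereas DESeq2 called it at the same size (adjusted p = 0.0216). The edgeR fit without coculture replicate 3 called it at 1.92 (SE 0.57, adjusted p = 0.00935). The gene lies at chr14:20836660-20843385 on the plus strand.

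Plaur encodes the urokinase receptor, which holds urokinase at the cell membrane. It was at 117, 159, 191 and 187 CPM in MKs cultured alone and at 76.4, 115, 105 and 115 CPM in the cocultures. The groups just failed to overlap. The means were 164 ± 34.3 CPM and 103 ± 18.4 CPM (SD, n = 4 each), with a log2 fold change of −0.67 (SE 0.23, adjusted p = 0.0639), which was not called. Without coculture replicate 3 it was −0.70 (SE 0.21, adjusted p = 0.00922), a 1.63-fold difference, under the 2-fold requirement. Plaur lies at chr7:24462484-24475968 on the plus strand. Its window, chr7:24462233-24462482 on the plus strand, is shown because it was the only member window besides that of F3 with AP-1 letters. A link between these letters and the level of either gene was not tested.
Plaur: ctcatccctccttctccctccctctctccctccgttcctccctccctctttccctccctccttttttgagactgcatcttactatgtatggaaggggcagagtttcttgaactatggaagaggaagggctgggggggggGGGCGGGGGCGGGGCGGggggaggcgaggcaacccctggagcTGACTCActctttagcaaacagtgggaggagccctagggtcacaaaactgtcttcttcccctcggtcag
The AP-1 letters of Plaur begin 69 bases before the start, on the other strand, and its 3 Sp1 matches begin 111, 105 and 100 bases before it and overlap or adjoin.

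**Figure D2:**
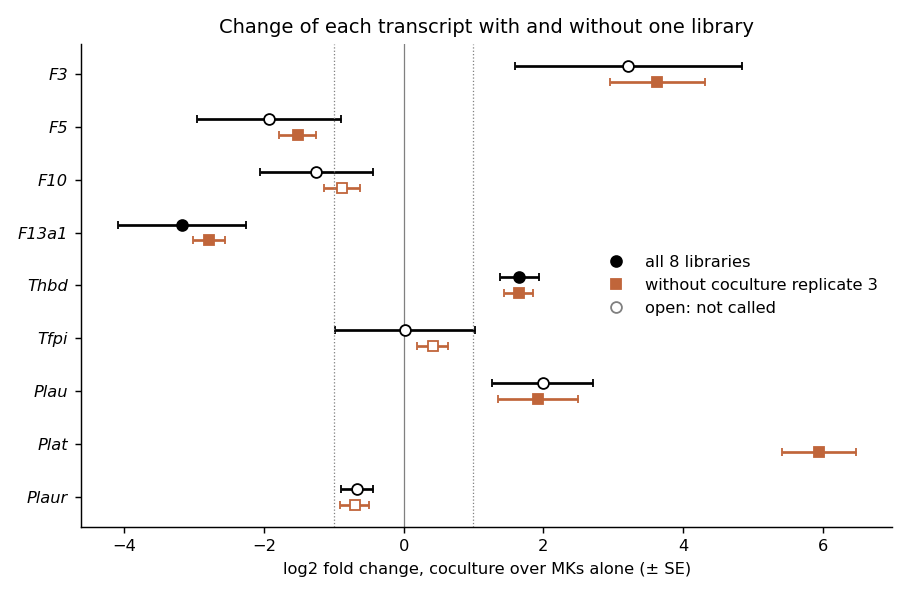
Fitted log2 fold change of each member, coculture over MKs cultured alone, with SE, from all 8 libraries and from 7 libraries without coculture replicate 3. Filled symbols passed the call rule and open symbols did not. Thbd stays at 1.65 in both fits, whereas the errors of F3, F5, F10, F13a1 and Tfpi shrink when that library is left out.

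To compare levels between genes, CPM was divided by the length in kb of the longest coding transcript. In MKs cultured alone the order was Plaur (109 ± 22.8 CPM per kb, SD, n = 4), F13a1 (80.9 ± 14.7), F10 (9.29 ± 2.29), Tfpi (5.83 ± 0.61), Thbd (4.51 ± 1.07), F5 (3.61 ± 0.79), F3 (0.464 ± 0.617), Plau (0.387 ± 0.218) and Plat (0.0753 ± 0.104). Neighbours in this order overlapped, except that every value of F13a1 was above those of F10 and every value of F5 above those of F3. The level of the receptor transcript Plaur was thus far above that of its ligand Plau. In the cocultures without replicate 3, Plaur stayed first at 67.9 ± 14.9 CPM per kb (SD, n = 3). Thbd came next at 14.4 ± 0.77, followed by F13a1 at 11.9 ± 3.64 and F5 last at 1.27 ± 0.31 CPM per kb. Between these, Tfpi, Plat, F3 and F10 had means from 7.84 to 5.17 CPM per kb, followed by Plau at 1.51 ± 0.86. Neighbours overlapped, except Plaur with Thbd and F10 with Plau. With replicate 3 the order of the means was the same in the cocultures, and only Plaur and Thbd did not overlap.

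The genes whose centred log2(CPM + 1) over the 8 libraries lay nearest to each member were found by root mean square distance. For F5 these were Vps54 and Insr, at distances of 0.11 and 0.17 on the log2 scale, and for F10 they were Klf2 and Smg6, at 0.12 and 0.15. F13a1 was nearest to Ifi209 and Dhrs9 (0.25 and 0.27), and both were at or near 0 in coculture replicate 3, as F13a1 was. Thbd was nearest to Stard3nl and Gpr173 (0.12 and 0.17), and Plaur to Chst12 and Unc93b1 (0.11 and 0.12), none of which dropped out of that library. Plat was nearest to Bmp1, a procollagen protease, and Ext1 (0.19 and 0.30). Tfpi was nearest to Nup155 and Trip13 (both 0.15), Plau to Pdxdc1 and Ak4 (0.25 and 0.27), and F3 to Bbs7 and 1500009L16Rik (both 0.41). In coculture replicate 3, the genes nearest to F3, F5, F10 and Tfpi were also low, between 0 and 1.46 CPM. Bmp1 and Ext1 were at 5.02 and 2.30 CPM there, against means of 87.7 and 88.8 CPM in the other cocultures. The part of that library in these distances was not tested. Adding 1 CPM shrinks the changes of scarce genes, so near genes need not differ by the same fold. Mean levels in MKs cultured alone and in cocultures were 0.0829 and 2.33 CPM for Gpr173, against 16.8 and 52.9 CPM for Thbd.

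The same functions were followed in a wider list of 53 coagulation and fibrinolysis genes, the 9 members included, of which 37 were measured and 32 tested with 8 libraries. Of these, 9 were called higher and 1, F13a1, lower, beside 13.2% higher and 7.31% lower among all genes tested. The median log2 fold change of the list was 0.62, beside 0.03 for all genes tested. The list was chosen with earlier results of these data known, so such contrasts describe it only. With coculture replicate 3 left out, 36 were tested, with 18 higher and 3 lower (F5, F13a1 and Proz), beside 20.6% higher and 15.4% lower among all genes, and the median was 0.91, beside 0.03 for all genes. Plasminogen, prothrombin and the fibrinogen chains were not analysed here, so these libraries give no level for the substrates of the members.

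Among 7 clotting factors tested with 8 libraries, only F13a1 was called, beside 13.2% higher and 7.31% lower among all genes. Vwf, the MK and endothelial adhesion protein that carries factor VIII, was at 54.7, 71.7, 84.4 and 64.9 CPM in MKs cultured alone and at 42.0, 45.5, 35.9 and 76.5 CPM in the cocultures, with a log2 fold change of −0.47 (SE 0.29, adjusted p = 0.290), or −0.36 (SE 0.22, adjusted p = 0.180) without coculture replicate 3. Without coculture replicate 3, the contact-phase cofactor genes Kng1 and Kng2, with no count in any library of MKs cultured alone, were also called higher. Against a floor of 3 counts per library they were at least 5.15-fold and at least 11.4-fold higher.

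Among 9 anticoagulants tested with 8 libraries, Thbd, Procr, Serping1 and Anxa5 were called higher and none lower. Over all genes tested, 13.2% were higher and 7.31% lower. The 4 anticoagulants were also called without coculture replicate 3, when 20.6% of all genes were higher and 15.4% lower. Procr encodes the endothelial protein C receptor, which presents protein C to the thrombin and thrombomodulin complex. It was at 0.662, 0.721, 1.44 and 0.163 CPM in MKs cultured alone and at 39.5, 30.0, 75.7 and 45.8 CPM in the cocultures. Procr thus rose together with Thbd, with a log2 fold change of 5.93 (SE 0.66, adjusted p = 0.000327) with 8 libraries and 5.54 (SE 0.37, adjusted p = 3.03e-09) without coculture replicate 3. Serping1, the inhibitor of C1 and of contact-phase proteases, had no count in MKs cultured alone and was at least 19.5-fold higher in the cocultures against the same floor (adjusted p = 0.00158), or at least 21.3-fold without coculture replicate 3. Pros1, the gene of protein S, a cofactor of activated protein C, had a log2 fold change of 1.10 (SE 0.42, adjusted p = 0.0931) and was called only without coculture replicate 3.

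Within the plasminogen system, 4 of 7 genes tested were called higher and none lower, beside 13.2% higher and 7.31% lower among all genes. Without coculture replicate 3 these 4 stayed called, at 11.3-fold for Serpinb2, 28.1-fold for Lrp1, 2.73-fold for Anxa2 and 2.57-fold for S100a10. Over all genes, 20.6% were then higher and 15.4% lower. Serpinb2, an inhibitor of urokinase, rose from 15.3 ± 9.21 to 160 ± 33.8 CPM (SD, n = 4 each, adjusted p = 0.0012). Lrp1, the receptor that clears complexes of activator and inhibitor, rose from 7.24 ± 2.31 to 218 ± 38.7 CPM (SD, n = 4 each, adjusted p = 2.55e-05). Anxa2 and S100a10, which together bind plasminogen and tissue plasminogen activator at the cell surface, rose 2.94-fold and 3.51-fold (adjusted p = 0.00178 and 0.00448). Transcripts of a urokinase inhibitor, of a clearance receptor and of surface binding proteins were therefore called higher with 8 libraries. Those of Plau were not called with 8 libraries, and those of Plat did not pass the filter. Both activators were also called higher when coculture replicate 3 was left out. Of 9 factor processing genes, only Mcfd2 was called with 8 libraries, beside 13.2% higher and 7.31% lower among all genes. Mcfd2, which helps to export factors V and VIII from the endoplasmic reticulum, was 2.13-fold higher (adjusted p = 0.00447). Without coculture replicate 3, Ggcx, Mcfd2 (2.10-fold) and Tpst1 were called higher and none lower, beside 20.6% higher and 15.4% lower among all genes.

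**Figure D3:**
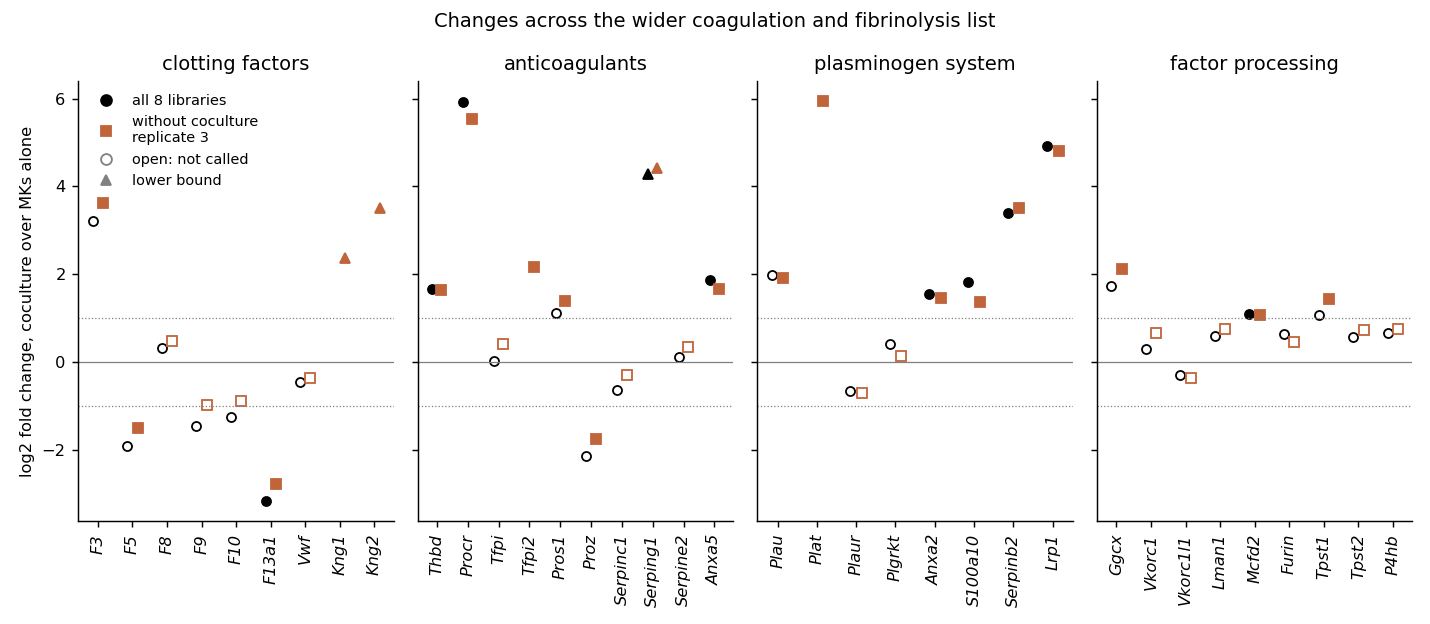
Log2 fold change of each tested gene of the wider list, coculture over MKs cultured alone, by role, from all 8 libraries (black circles) and without coculture replicate 3 (orange squares). Filled symbols were called, open ones were not, dotted lines mark 2-fold, and triangles are lower bounds for genes with no count in MKs cultured alone. Among the plasminogen genes, Anxa2, S100a10, Serpinb2 and Lrp1 are filled in both fits.

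Markers of other cell types differed between the groups along with these genes. The summed level of 10 measured MSC markers was between 14.6 and 22.8 CPM in MKs cultured alone and between 1155 and 3841 CPM in the cocultures, lowest in replicate 3, and 6 were called higher (9 without replicate 3). In replicate 3, 3 of the 10 were at 0 (Lepr, Kitl and Postn), and others such as Sparc (548 CPM) and Col1a2 (364 CPM) were not. Macrophage markers summed to between 157 and 236 CPM in MKs cultured alone and to between 1052 and 2130 CPM in the cocultures, highest in replicate 3, and 9 of 10 were called higher (all 10 without replicate 3). B cell markers summed to between 819 and 870 CPM in MKs cultured alone and to between 60.9 and 216 CPM in the cocultures, with 4 of 6 lower. The part of these cell types, and of the neutrophils described above, in the values of the members and of the wider list was not tested.

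Thbd and Procr are also known from endothelium, and the MSC sort took CD31- cells. The 6 measured endothelial markers summed to between 63.2 and 70.4 CPM in MKs cultured alone and to between 13.8 and 33.5 CPM in the cocultures, and Tek was called lower (Tek and Kdr without coculture replicate 3). Cdh5, which defines endothelial cells, was at 0, 0.721, 0.887 and 0 CPM in MKs cultured alone and at 0, 0.391, 2.62 and 0.694 CPM in the cocultures. The part of endothelial cells in the values of Thbd and Procr was not tested.

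**Figure D4:**
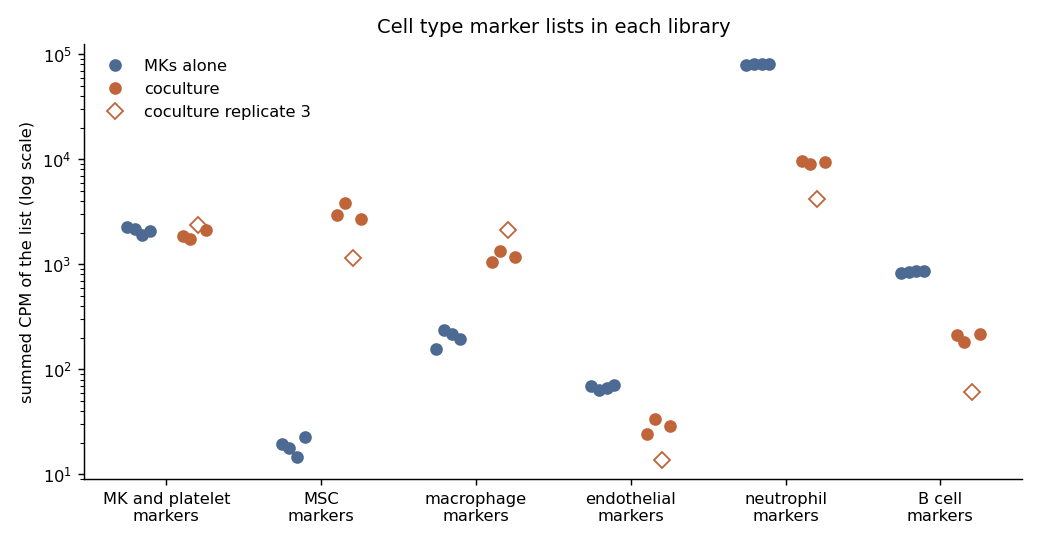
Summed CPM of each marker list in each library, on a log scale, for MKs cultured alone and cocultures, with coculture replicate 3 as open diamonds. MK and platelet markers overlap between the groups, MSC and macrophage markers lie higher in all cocultures, and neutrophil, B cell and endothelial markers lie lower.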

How the data were processed

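Bulk RNA-Seq covered 8 libraries, 4 in each of the labelled groups. Deposited values were the authors' gene-level counts, whole numbers that had not been normalized. According to the methods, paired-end SMART-Seq HT reads were filtered with fastp and quantified with kallisto on the mm10 transcriptome, and the authors compared groups with DESeq2. The step from transcripts to gene counts, any filter and the batches in that design are not given in the sources used here. No gene had fewer than 11 counts in all 8 libraries together.

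Counts were fitted over the whole table with edgeR 4.0.16 (limma 3.58.1, R 4.3.3), using TMM factors, filterByExpr and a robust quasi-likelihood F test without covariates. CPM, log2(CPM + 1) and folds were computed from these counts. Calls required a 2-fold difference, a p no higher than 0.05 after Benjamini-Hochberg adjustment, and a group mean that reached 1 CPM. Alternatives were DESeq2 1.42.0, other scalings and filters, the replicate number as a block, and each library left out in turn. Scaling to the mean log level of MK markers, and fits of Plat without a filter, were added after seeing the data. The fits were tested on simulated data. Those data held no library like coculture replicate 3, so that test does not cover its effect on the calls. Totals ran from 4939874 to 12523616 counts, and floors of 3 counts cover counting error only, since reads carry no molecular identifiers. A gene of the wider list is not reported here and is not counted. The members and gene lists were chosen with earlier results of these data known. Named genes were the members, their 2 nearest genes by pattern, the genes of the wider list with their roles, and markers. Positions, exons and lengths came from GENCODE vM21 on GRCm38, where 13374 of 13387 symbols were found, and promoters from RefSeq.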

Additional observations from a re-analysis of the deposited data

Results flagged for a closer look

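In 4 of 18 groups of 4 libraries (9 members in 2 groups), 1 library lay far from the other 3 on the log2(CPM + 1) scale by Dixon's test, where chance gives about 0.9 such groups. In all 4 it was coculture replicate 3, so these are repeated readings of 1 library and not separate tests. The chance figure takes no account of this. F10 was at 0.504 there and between 3.64 and 4.05 in the other cocultures. F13a1, the factor XIII A subunit, was at 0.703 compared with 5.09 to 5.97. Tfpi was at 0.144 compared with 4.47 to 5.23. Plat was at 0 compared with 3.79 to 4.22. F3 and F5 were also at 0 in that library but did not pass Dixon's limit for 4 values. The cause was not tested.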

How the results depend on the processing

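The rise of Thbd was called under all 18 alternatives (log2 fold change 1.54 to 2.16), and neither Plaur nor F10 was called under any. The number of members called higher was 2 under DESeq2, without a filter and when scaled to the mean log level of MK markers, and from 1 to 4 when a library was left out. The number called lower was 0 with library size only, when scaled to the summed MK markers, with at least 10 counts in every library and with the replicate block in edgeR, and from 0 to 2 when a library was left out. With at least 10 counts in every library only 2 members were tested, and F13a1 was not among them. F13a1 was not called, at −3.04 with library size only, −3.00 when scaled to the summed MK markers and −3.77 with the replicate block in edgeR. DESeq2 called F13a1 lower, at −3.21 (adjusted p = 0.00107) and, with the replicate block, at −3.85 (adjusted p = 7.77e-05). Plau was called at 2.55 when scaled to the mean log level of MK markers and at 1.99 under DESeq2, but not under DESeq2 with the replicate block (2.12, adjusted p = 0.0559). Plat, fitted without a filter, was not called with the replicate block in edgeR (5.70, adjusted p = 0.242). The direction of Tfpi turned to −0.0215 with RLE factors and −0.0218 under DESeq2, to −0.0026 without a filter, and to −0.60 and −0.66 with the replicate block in edgeR and DESeq2. With a library left out, log2 fold changes ranged from 2.77 to 4.39 for F3, −2.28 to −1.51 for F5, −3.55 to −2.78 for F13a1, −0.26 to 0.42 for Tfpi, 1.63 to 2.20 for Plau and 5.31 to 6.80 for Plat. Adjusted p then ranged from 0.000294 to 0.342 for F3 and from 0.000139 to 0.341 for F5, lowest without coculture replicate 3. Tfpi was negative without replicate 3 or 4 of MKs cultured alone (−0.04 and −0.05) and without coculture replicate 1 or 2 (−0.26 each).

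In the wider list, 9 genes were higher, from 6 to 13 under the other settings, and 8 to 18 when a library was left out. The number lower was 0 with library size only, scaling to the summed MK markers, at least 10 counts in every library and the replicate block in edgeR, 2 under DESeq2, and 0 to 3 when a library was left out. Only 18 genes of the list were tested with at least 10 counts in every library. Over all genes, 1544 were higher and 857 lower. Scaling to the mean log level of MK markers gave 2145 and 497 and moved the median log2 fold change from 0.03 to 0.52, and the fold change of Plaur to −0.15. The replicate block gave 1096 higher and 573 lower in edgeR and 1392 lower in DESeq2. Leaving out a library gave 1071 to 2530 higher and 539 to 1890 lower. Replicate numbers were not taken as pairs in the main fit, since the batch in the authors' design is not named. The deviations of libraries with the same number correlated at 0.369, 0.020, 0.150 and 0.028 across genes. Those of libraries with different numbers correlated between −0.282 and 0.099. Whether the numbers mark pairs is not given in the sources used here. Coculture replicate 3 decided the edgeR calls of F3 and F5, the causes were not tested, and genes of 10 counts or fewer per library, such as Plau and Plat in MKs cultured alone, are limited by depth.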
